A study of Homo sapiens with 10 samples.

Results

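Molecular chaperones were followed in MRC5 cells, a human lung fibroblast line, after exposure to medium conditioned by A549 cells, a line from a human lung cancer that keeps traits of alveolar epithelium. The set held 36 genes: HSF1, the HSP70, HSP40, HSP90 and small heat shock proteins, their co-chaperones, the 8 subunits of the chaperonin TRiC (TCP1 and the CCT genes) and the mitochondrial chaperones. They were listed by gene name and role, with earlier results of these data known, and 32 of the 36 were among the 14054 genes of the deposited table. All 32 passed the filter on low counts, out of 10968 genes tested. HSF1, HSPA1A, HSPA1B and HSPH1 were not analysed here. The cells received medium from stretched A549 cells (stretch medium, 5 libraries, numbered 2, 4, 6, 8 and 10) or medium from non-stretched A549 cells (static medium, 5 libraries, numbered 1, 3, 5, 7 and 9). The labels give both groups the same line and no other treatment. The sample descriptions give 24 hours of exposure and the series design gives 6 hours, so the time is not settled. Whether each library is its own culture is not stated in the labels, and p-values therefore reflect only the spread among these libraries, which may be technical.

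Chaperones bind unfolded or partly folded proteins and let them fold without aggregating. HSP70 works in cycles of ATP use that HSP40 proteins start and that exchange factors, such as HSPA4 and the BAG proteins, reset. HSP90 takes over clients such as kinases and steroid receptors, with co-chaperones that hand over the client or set the pace of ATP use. TRiC is a ring-shaped chamber in which actin and tubulin fold, and HSPD1 with its lid HSPE1 forms the chamber of mitochondria. On heat or proteotoxic stress the transcription factor HSF1 binds heat shock elements, which are alternating GAA and TTC units, and induces many of these genes. In contractile cells, small heat shock proteins and BAG3 are also known for upkeep of the actin cytoskeleton under load.

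Fibroblast identity was clear in the counts. Each of 10 fibroblast markers, among them COL1A1, COL3A1, THY1 and VIM, was above the filter, and their summed level was 13409 to 16474 CPM (counts per 10 to the 6th of a library's TMM-adjusted total) with stretch medium and 14889 to 16629 CPM with static medium. VIM, the intermediate filament of fibroblasts, was at 1580 CPM in stretch 2, against 4091 to 4328 CPM in the other stretch libraries and 4057 to 5073 CPM in the static libraries. The part of stretch 2 in the results was tested only by leaving it out. Of 11 epithelial and A549 markers, 7 were in the table and their sum was 41.9 to 52.04 CPM with stretch medium and 36.2 to 48.1 CPM with static medium. Of 5 endothelial markers, 4 were in the table, at summed levels of 48.4 to 68.2 CPM with stretch medium and 53.7 to 65.9 CPM with static medium, of which most was TEK. Of 4 leukocyte markers, CD68 and LYZ were in the table, at sums of 182 to 232 CPM with stretch medium and 194 to 208 CPM with static medium. CD68 averaged 202 CPM with stretch medium and 199 CPM with static medium. Total counts were 4231653 (stretch 2) to 8455073 (static 3). Chaperone genes had between 42 (HSPA4L) and 18099 (HSPA8) counts in a library. HSPA4L, DNAJB1, BAG1, HSP90AA1, AHSA1, CDC37, CRYAB, TCP1, CCT4, TRAP1, HSPD1 and HSPE1 overlap, in annotated bounds, a gene of the table on the opposite strand. These bounds include introns, and exons were not compared. Strand use in counting is not given, so some reads may belong to the partner.

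No chaperone gene passed the test between the media. In edgeR's quasi-likelihood test with Benjamini-Hochberg adjustment over all genes, 0 of 32 chaperones had an adjusted p under 0.05, as did 0 of the 10968 genes tested (0%). The smallest adjusted p among chaperones was 0.164. DESeq2 called 0 chaperones and 2.84% of the 9690 genes to which it gave an adjusted p, and limma-voom called 0 chaperones and 0.00912% of genes. At an unadjusted p under 0.05 there were 5 chaperones, 1 higher and 4 lower with stretch medium. That is 15.6% of the 32, near the 16.4% of all genes (8.08% higher and 8.37% lower). Groups did not overlap for 1 chaperone, 3.13% of the set, against 3.72% of all genes (1.74% with stretch medium above and 1.98% with it below).

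More chaperones lay below 0 than above it, by small amounts. Log2 fold changes, given throughout as stretch minus static medium, were below 0 for 22 of 32 genes (68.8%), against 49.9% of all genes, and above 0 for 10, against 50.1%. The count below 0 was 18 of 32 without static 9, 20 without static 7, 21 without stretch 2 and at most 23 with any library left out. The median was -0.11, against 0.00035 over all genes tested. The estimates ran from -0.38 (BAG1) to 0.33 (BAG3). Of the 95% intervals, 27 of 32 spanned 0, 22 lay wholly within 0.5 of 0 and all 32 lay within 1 of 0. The intervals reached no lower than 0.588 times the static level (HSPA4L) and no higher than 1.48 times (BAG3). The median coefficient of variation of a chaperone within its group was 11.7% with stretch medium and 13.2% with static medium.

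**Figure D1:**
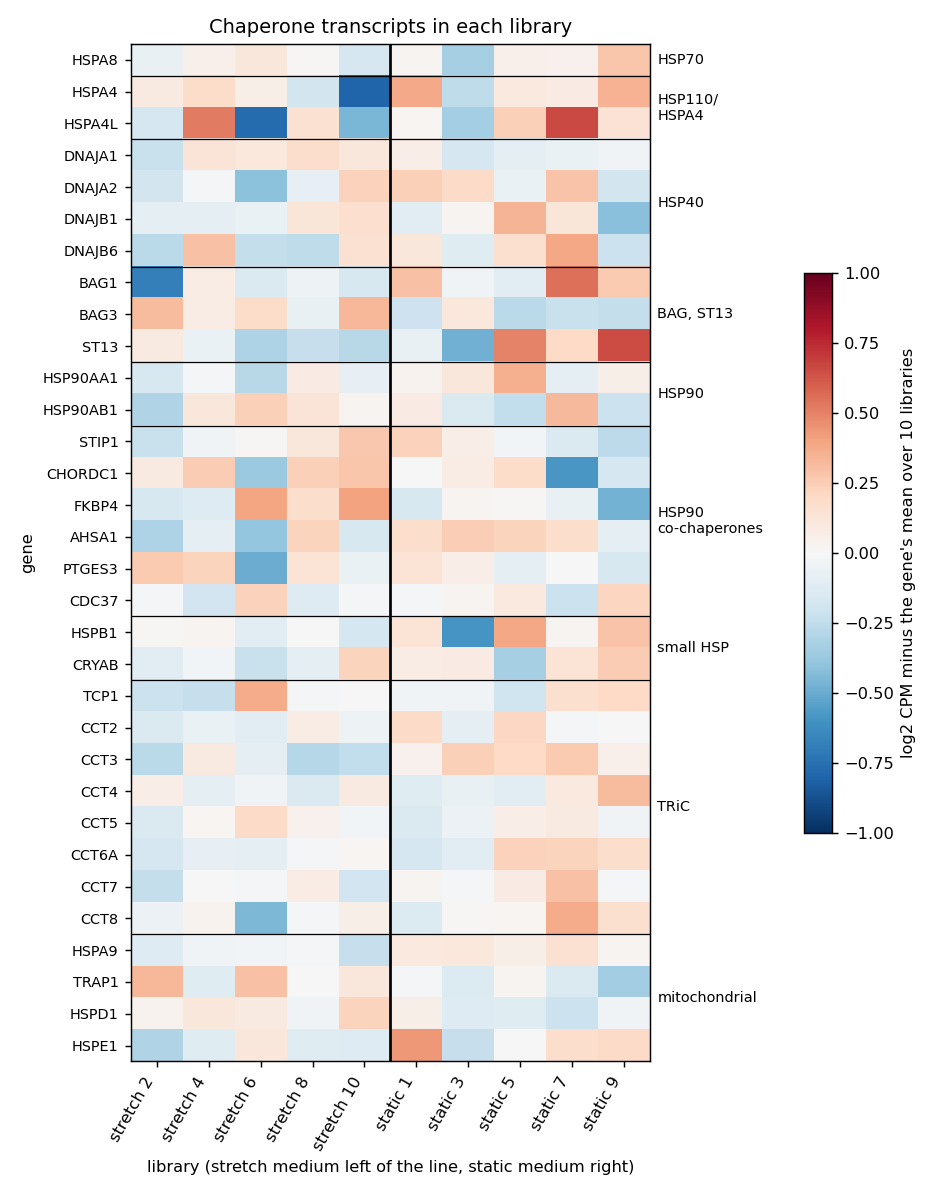
Heat map of 32 chaperone genes (down) in 10 libraries (across, stretch medium left of the line and static medium right), grouped by role. Colour is log2 CPM minus the gene's mean over the 10 libraries, and static 7 holds the highest value for 9 genes and stretch 2 the lowest for 8.

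**Figure D2:**
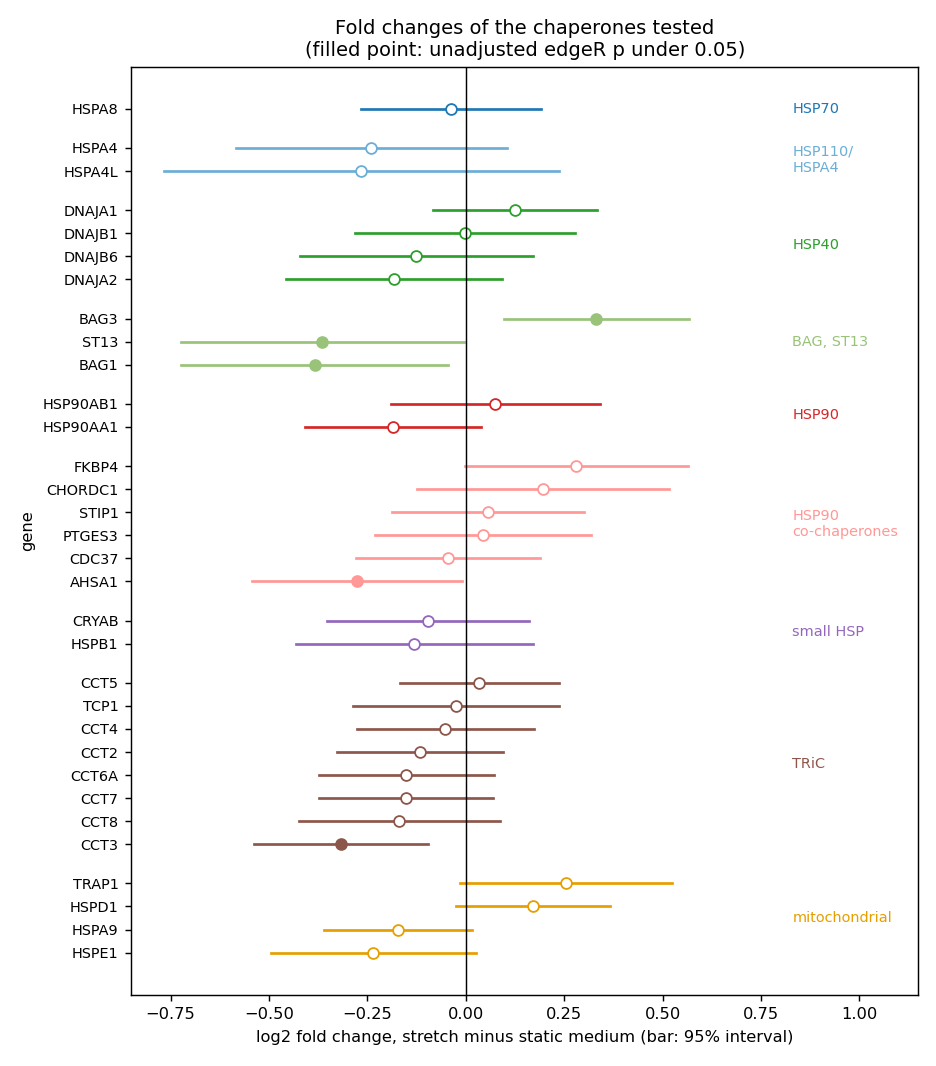
Log2 fold change of each gene, stretch minus static medium (points), with its 95% interval from edgeR (bars), grouped and coloured by role. Filled points are the 5 genes with an unadjusted p under 0.05, BAG3 to the right of 0 and BAG1, ST13, AHSA1 and CCT3 to the left.

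Grouped by role, the median log2 fold changes ran from -0.36 to 0.049. They were -0.25 for the exchange factors HSPA4 and HSPA4L, -0.065 for 4 HSP40 genes, -0.36 for BAG1, BAG3 and ST13, -0.055 for the HSP90 pair, 0.049 for 6 HSP90 co-chaperones, -0.11 for the small heat shock proteins, -0.13 for 8 TRiC subunits and -0.00095 for 4 mitochondrial genes. The differences between these groups were not tested. The median of BAG1, BAG3 and ST13 is ST13's own value, between BAG1 at -0.38 and BAG3 at 0.33. Without stretch 10 the median of HSPA4 and HSPA4L was -0.15, and without stretch 4 it was -0.39. Genes listed here as induced by HSF1 on heat shock had a median of -0.0031 over 13 tested, with 6 above and 7 below 0. The list was drawn up by hand, and a gene outside it may still be induced by HSF1. The other 19 genes had a median of -0.13, with 4 above and 15 below 0. Both the median of the HSF1-induced genes and that of the mitochondrial genes were so near 0 that their sign turned with the scaling or tool.

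Heat shock elements are the letters that HSF1 is known to bind, and promoter windows of the set were searched for them. The windows are RefSeq's, 250 bases before to 50 bases after an annotated start on GRCh38.p14, and 28 of the 32 genes tested had at least 1. A triple element (GAANNTTC followed by NNGAA, or TTCNNGAA followed by NNTTC, on both strands) stood in a window of 7 of these 28 genes (25%), against 0.608% of 27305 genes with a window. A pair, GAANNTTC or TTCNNGAA, which is part of each triple, stood in 15 of 28 (53.6%), against 16.2%. All 9 stretches with a triple are shown, since the triple is the longest motif searched. Triples that overlap were joined into 1 stretch, as in CHORDC1 and HSPD1, where the alternating units run on beyond a triple. A match is a description of the letters and does not show a bound site. HSPA8, DNAJB6 and HSP90AB1 have a triple and are not among the genes listed here as HSF1-induced, which does not show that HSF1 leaves them uninduced. DNAJB1, HSPB1, STIP1, BAG3, HSPA4L, AHSA1 and HSPE1 are listed and had none. CRYAB and FKBP4 are listed and had no window. Capitals mark the alternating units and the bases between them, and each sequence is written 5′ to 3′ on the gene's own strand.
HSPA8, chr11:123062346-123062374, minus strand: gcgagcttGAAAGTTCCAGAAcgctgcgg
HSPA8, chr11:123062171-123062199, minus strand: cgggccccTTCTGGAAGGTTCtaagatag
DNAJA1, chr9:33025268-33025296, plus strand: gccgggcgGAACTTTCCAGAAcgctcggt
DNAJB6, chr7:157336865-157336893, plus strand: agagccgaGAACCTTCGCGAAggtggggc
HSP90AA1, chr14:102087112-102087140, minus strand: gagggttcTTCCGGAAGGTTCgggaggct
HSP90AB1, chr6:44247770-44247798, plus strand: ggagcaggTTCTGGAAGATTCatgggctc
HSP90AB1, chr6:44247823-44247851, plus strand: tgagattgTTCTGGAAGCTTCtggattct
CHORDC1, chr11:90223079-90223117, minus strand: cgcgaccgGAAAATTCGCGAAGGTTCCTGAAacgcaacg
HSPD1, chr2:197500060-197500090, minus strand: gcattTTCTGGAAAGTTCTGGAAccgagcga

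The 7 genes with a triple lay on both sides of 0. Their log2 fold changes ran from -0.19 (HSP90AA1) to 0.20 (CHORDC1), 4 above and 3 below 0. An unadjusted p under 0.05 was found for 0 of the 7, against 16.4% of all genes. A pair stood in only 15 of the 28 tested chaperones with a window (53.6%) and in 16.2% of all genes, so its absence is common. The windows of BAG3, BAG1, AHSA1 and CCT3, 4 of the 5 chaperones with such a p, held no pair, and ST13 had no window. This says only that these letters were not in those windows.

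HSPA8, the constitutive cytosolic HSP70 (ENSG00000109971, chromosome 11, 123057489 to 123063230), was the one member of its group analysed. It was at 2186, 2380, 2482, 2310 and 2040 CPM in stretch 2, 4, 6, 8 and 10, and at 2345, 1819, 2381, 2362 and 2784 CPM in static 1, 3, 5, 7 and 9. The stretch libraries lay within the range of the static libraries. On the log2 scale the difference was -0.037 (interval -0.27 to 0.19, edgeR adjusted p = 0.897). The stress-only HSP70 gene HSPA6, named here after its values were seen, had at most 2 counts in any library of either group, below the floor of 3 counts that a single library allows.

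HSPA4, an exchange factor that resets HSP70 (chromosome 5, 133051962 to 133106449), was at 826, 883, 809, 682 and 446 CPM with stretch medium and at 1008, 653, 832, 821 and 990 CPM with static medium. Stretch 10 was the lowest library, and the groups overlapped. A log2 fold change of -0.24 was fitted (interval -0.58 to 0.10, edgeR adjusted p = 0.479), and without stretch 10 it was -0.11.

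HSPA4L, its close relative (chromosome 4, 127781821 to 127840733), was at 10.4, 16.9, 6.74, 13.1 and 8.44 CPM with stretch medium and at 11.9, 9.197, 13.8, 18.7 and 13.0 CPM with static medium. The ranges overlapped widely, and the interval of -0.77 to 0.24 was the widest of the set. Its estimate of -0.26 was -0.46 without stretch 4, -0.12 without stretch 6 and -0.10 without static 7. The ribosomal protein pseudogene RPL21P53 lies inside its bounds on the opposite strand, and the use of strand is not given in the sources used here. RPL21P53 had 0 counts in each stretch library but stretch 6, at 15.3 CPM, and 36.3 to 123 CPM with static medium. Its log2 fold change of -4.42 was the lowest of all genes tested (adjusted p = 0.084 in edgeR, 0.191 in DESeq2 and 0.0146 in limma-voom). RPL21, the gene it is named for, had the highest, at 4.15. The cause of these opposite values was not tested, nor was the part of RPL21P53 in the HSPA4L level.

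HSP40 proteins bring clients to HSP70 and start its ATP use. Of the 4 genes, 1 lay above 0 and 3 below, and 0 had an unadjusted p under 0.05. DNAJA1 (chromosome 9, 33025211 to 33039907) was at 596, 759, 749, 785 and 751 CPM with stretch medium and at 729, 620, 650, 664 and 677 CPM with static medium. Stretch 2 was the lowest library of the 10, while the other 4 stretch libraries lay above each static library. The fitted difference was 0.12 on the log2 scale (interval -0.084 to 0.33, edgeR adjusted p = 0.554), and without stretch 2 it was 0.19.

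DNAJA2 (chromosome 16, 46955362 to 46973788) was at 122, 138, 104, 131 and 164 CPM with stretch medium and at 164, 159, 133, 169 and 122 CPM with static medium, with a log2 fold change of -0.18 (interval -0.46 to 0.092), which was -0.11 without stretch 6. These groups overlapped over most of their range. DNAJB6, which holds back protein aggregation, had a log2 fold change of -0.13 (interval -0.42 to 0.17). The stress-induced DNAJB1 averaged 71.0 ± 6.35 CPM with stretch medium and 71.1 ± 13.5 CPM with static medium (SD, n = 5 each), with an interval of -0.28 to 0.28. DNAJB1 overlaps TECR, which lies on the other strand and averaged 264 CPM with stretch medium and 196 CPM with static medium.

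The 3 genes of the BAG and ST13 group each had an unadjusted p under 0.05 in edgeR, 1 above and 2 below 0. Such a p was found for 16.4% of all genes and 15.6% of the 32 chaperones, and the group was not tested as a set. BAG1 and BAG3 also had one in DESeq2 and limma-voom, while ST13 had none in limma-voom or in edgeR with library totals as the scaling. BAG3 links HSP70 to small heat shock proteins and to selective autophagy of damaged cytoskeletal proteins, and HSF1 induces it (chromosome 10, 119651370 to 119677819). It was at 252, 214, 230, 193 and 255 CPM with stretch medium and at 176, 218, 169, 174 and 172 CPM with static medium. Each stretch library was above 4 of the 5 static libraries, and static 3 alone reached into their range. The means were 229 ± 26.3 CPM with stretch medium and 182 ± 20.7 CPM with static medium (SD, n = 5 each). Its log2 fold change of 0.33 ± 0.11 (standard error, interval 0.097 to 0.57) did not pass the test (adjusted p = 0.166 in edgeR, 0.0838 in DESeq2 and 0.17 in limma-voom). Without static 3 it was 0.40 and edgeR's adjusted p was 0.103.

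BAG1, the founding exchange factor of the family, which couples HSP70 to the proteasome (chromosome 9, 33247820 to 33264720), pointed the other way. It was at 19.0, 32.3, 27.8, 29.7 and 27.5 CPM with stretch medium and at 37.8, 30.1, 28.6, 45.3 and 36.9 CPM with static medium. Stretch 2 was the lowest library and the groups overlapped between 28.6 and 32.3 CPM. A log2 fold change of -0.38 ± 0.16 was fitted (edgeR adjusted p = 0.256), and without stretch 2 it was -0.28.

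The ratio of BAG3 to BAG1 counts, which no scaling touches, was 13.3, 6.61, 8.28, 6.49 and 9.28 with stretch medium and 4.65, 7.27, 5.90, 3.84 and 4.66 with static medium. Only static 3 reached into the stretch range, and stretch 2 stood at the top. The pair was chosen after its values were seen, so the ratio is given with no test.

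ST13, which joins HSP70 to HSP90 and keeps HSP70 bound to its client (chromosome 22, 40824535 to 40857022), was at 265, 238, 201, 212 and 206 CPM with stretch medium and at 236, 178, 351, 286 and 391 CPM with static medium. The static libraries were widely spread, with static 3 below and static 5, 7 and 9 above each stretch library. Its estimate, -0.36 ± 0.17 on the log2 scale, had an adjusted p of 0.298 in edgeR and was -0.23 without static 9.

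**Figure D3:**
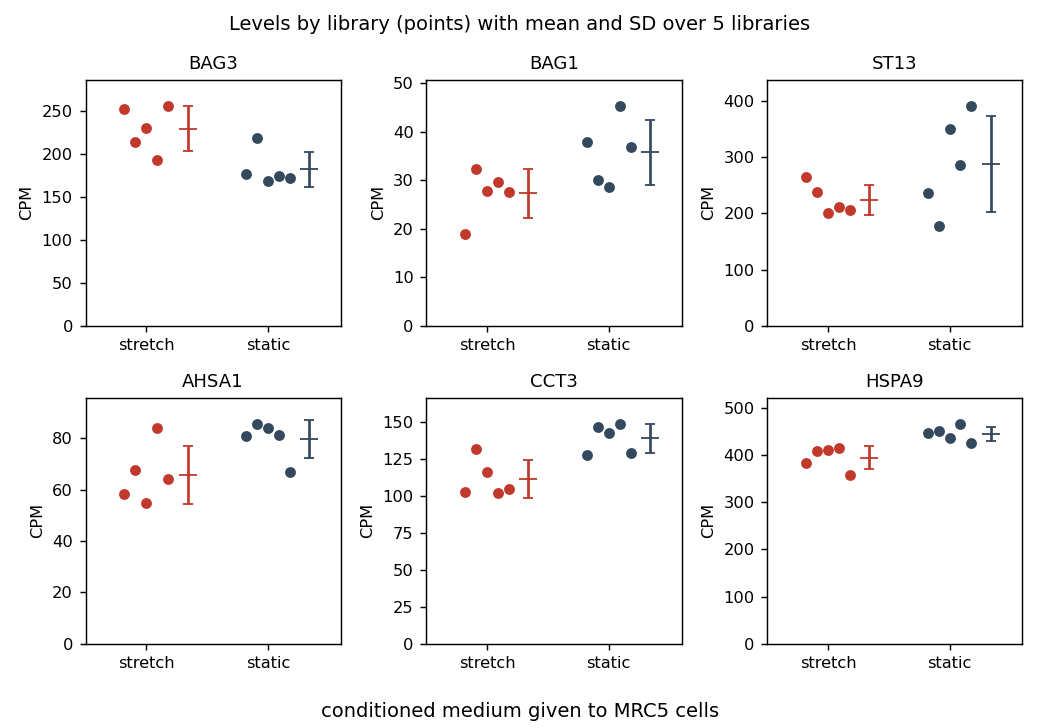
CPM (y axes, from 0) of BAG3, BAG1, ST13, AHSA1, CCT3 and HSPA9 in each library (points), with the mean and SD over 5 libraries beside them, stretch medium left of static medium in each panel. The groups overlap in each panel but that of HSPA9, where the stretch libraries end at 415 CPM and the static libraries start at 426 CPM.

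The HSP90 pair showed no common direction. HSP90AA1, the stress-inducible form (chromosome 14, 102080738 to 102139699), was at 551, 608, 509, 651 and 580 CPM with stretch medium and at 630, 665, 786, 575 and 639 CPM with static medium. Each stretch library was below the static mean of 659 CPM, and the groups overlapped. On the log2 scale HSP90AA1 was at -0.19 (interval -0.41 to 0.038, edgeR adjusted p = 0.397), and at -0.11 without static 5.

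HSP90AB1, the constitutive form (chromosome 6, 44246166 to 44253888), was at 1124, 1492, 1628, 1508 and 1407 CPM with stretch medium and at 1460, 1248, 1168, 1730 and 1189 CPM with static medium. The lowest value was in stretch 2 and the highest in static 7. On the log2 scale HSP90AB1 was at 0.075 (interval -0.19 to 0.34, edgeR adjusted p = 0.807). The HSP90AB1 log2 fold change was 0.15 without stretch 2, and 0.026 to 0.18 over all libraries left out in turn.

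Among 6 HSP90 co-chaperones, 4 lay above 0 and 2 below, and those at the ends were a peptidyl-prolyl isomerase and an ATPase activator. FKBP4, an immunophilin that carries steroid receptors with HSP90 (chromosome 12, 2794953 to 2805423), was at 187, 192, 275, 236 and 277 CPM with stretch medium and at 187, 213, 211, 199 and 151 CPM with static medium. Stretch 6, 8 and 10 were above each static library, while stretch 2 and 4 lay among them. FKBP4 thus had a log2 fold change of 0.28 ± 0.13 (interval -0.0030 to 0.56, edgeR adjusted p = 0.308).

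AHSA1, which speeds ATP use by HSP90 (chromosome 14, 77457870 to 77469474), was at 58.2, 67.5, 54.9, 84.1 and 64.3 CPM with stretch medium and at 81.1, 85.5, 84.1, 81.2 and 67.0 CPM with static medium. Stretch 8 lay among the upper static libraries and static 9 among the stretch libraries. AHSA1 had a log2 fold change of -0.28 ± 0.13 (edgeR adjusted p = 0.287), and its unadjusted p was over 0.05 with the title number as a covariate.

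The other 4 co-chaperones had intervals that spanned 0. CHORDC1, a stress-induced partner of HSP90, had a log2 fold change of 0.20 (interval -0.12 to 0.52), 0.092 without static 7 and 0.30 without stretch 6. STIP1, which holds HSP70 and HSP90 together for client transfer, was at 0.056 (interval -0.19 to 0.30). The late-cycle co-chaperone PTGES3 was at 0.043 (interval -0.23 to 0.32) and the kinase-loading co-chaperone CDC37 at -0.045 (interval -0.28 to 0.19).

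Small heat shock proteins bind unfolding clients without ATP. HSPB1 averaged 660 ± 40.0 CPM with stretch medium and 723 ± 169 CPM with static medium (SD, n = 5 each). Its stretch libraries lay between 604 and 696 CPM, inside the static range of 452 to 889 CPM. The log2 fold change was -0.13 (interval -0.43 to 0.17), -0.26 without static 3 and -0.044 without static 5. CRYAB averaged 107 ± 12.7 CPM with stretch medium and 115 ± 16.4 CPM with static medium, with an interval of -0.35 to 0.16.

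TRiC subunits leaned below 0 by small steps. Of the 8, 7 had a log2 fold change below 0 (87.5%, against 49.9% of all genes and 68.8% of the 32 chaperones). The range was -0.32 to 0.034. An unadjusted p under 0.05 was found for 1 of 8 (12.5%, against 16.4% of all genes). Without static 9, 5 of the 8 lay below 0. The mean of their centred log2 CPM was -0.15, -0.041, -0.029, -0.035 and -0.043 in stretch 2, 4, 6, 8 and 10 and -0.042, -0.017, 0.063, 0.18 and 0.11 in static 1, 3, 5, 7 and 9. Static 7 stood highest, with 7 of 8 subunits above their own mean, and stretch 2 lowest, with 1 of 8. Static 1 lay among the stretch libraries. Without stretch 2 the median log2 fold change of the subunits was -0.11.

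CCT3, the gamma subunit (ENSG00000163468, chromosome 1, 156308968 to 156367873), was furthest from 0. It was at 103, 132, 117, 102 and 105 CPM with stretch medium and at 128, 147, 143, 149 and 129 CPM with static medium. Stretch 4 alone was above the lowest static libraries, 1 and 9. The means were 112 ± 12.8 CPM with stretch medium and 139 ± 9.93 CPM with static medium (SD, n = 5 each). Its log2 fold change of -0.32 ± 0.10 (interval -0.54 to -0.096) did not pass the test (adjusted p = 0.164 in edgeR, 0.0789 in DESeq2 and 0.156 in limma-voom). It stayed between -0.39 and -0.29 with any library left out, and without stretch 4 edgeR's adjusted p was 0.0858.

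TCP1, the alpha subunit (chromosome 6, 159778498 to 159789749), was at 310, 307, 465, 357 and 362 CPM with stretch medium and at 351, 351, 314, 402 and 414 CPM with static medium. Stretch 6 was the highest library of the 10, and the groups overlapped throughout. The log2 fold change was -0.024 (interval -0.29 to 0.24).

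CCT5, the epsilon subunit and the one with an estimate above 0 (chromosome 5, 10249921 to 10266412), was at 394, 440, 495, 449 and 426 CPM with stretch medium and at 393, 416, 455, 463 and 425 CPM with static medium. Its interval was -0.17 to 0.24. Stretch and static libraries were interleaved. The remaining 5 subunits, CCT2, CCT4, CCT6A, CCT7 and CCT8, had log2 fold changes from -0.17 to -0.052, each with an interval that spanned 0.

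**Figure D4:**
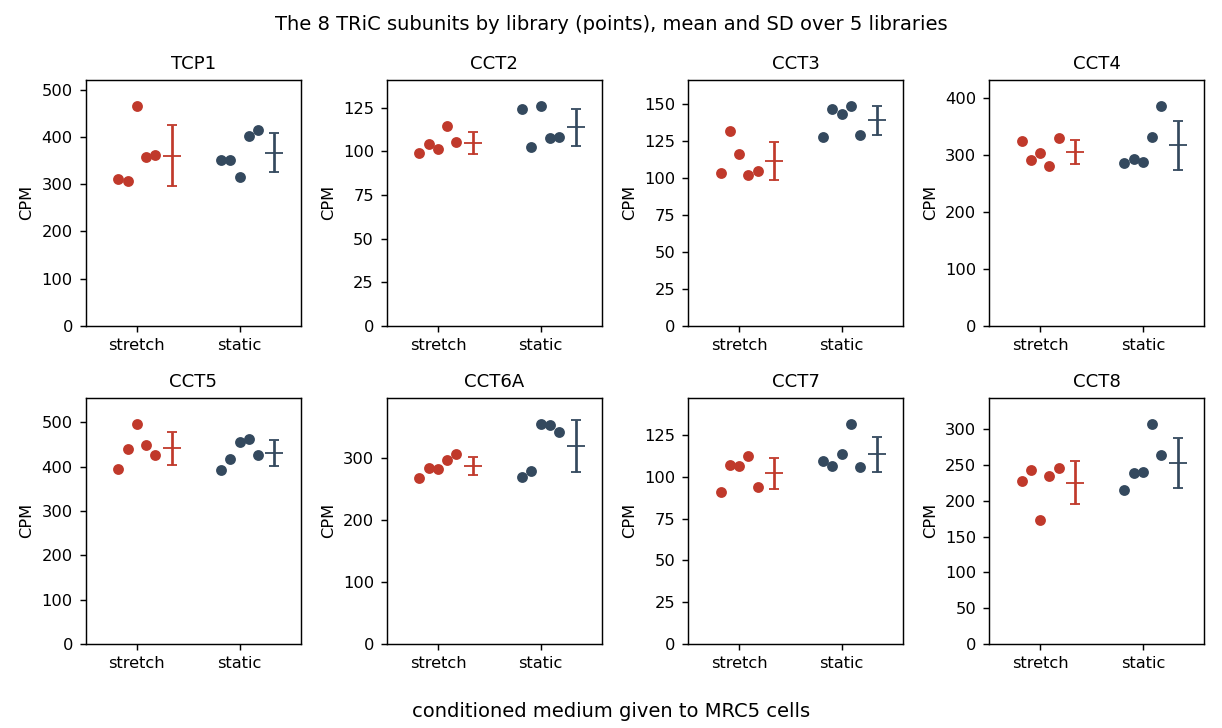
CPM (y axes, from 0) of the 8 TRiC subunits in each library (points), with the mean and SD over 5 libraries beside them, stretch medium left of static medium in each panel. CCT3 shows the clearest gap, 112 against 139 CPM on average, and the points of the other 7 panels are interleaved.

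Estimates for the barrel and the lid of the mitochondrial folding chamber lay on opposite sides of 0, and neither passed the test. HSPA9, the HSP70 of the matrix and of protein import (ENSG00000113013, chromosome 5, 138553756 to 138575724), was at 382, 408, 409, 415 and 357 CPM with stretch medium and at 446, 450, 435, 465 and 426 CPM with static medium. Each stretch library lay below each static library, which was so for 1.98% of all genes. The means were 394 ± 24.4 CPM with stretch medium and 444 ± 14.9 CPM with static medium (SD, n = 5 each). The log2 fold change was -0.17 ± 0.089 (interval -0.36 to 0.015), with an adjusted p of 0.344 in edgeR and 0.24 in DESeq2.

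HSPD1, the barrel of the mitochondrial chaperonin (chromosome 2, 197486581 to 197516737), was at 767, 813, 797, 734 and 876 CPM with stretch medium and at 782, 687, 691, 647 and 734 CPM with static medium. Each stretch library was above the static mean of 708 CPM, and static 1 lay among the stretch libraries, with static 9 level with stretch 8. Its log2 fold change was 0.17 (interval -0.025 to 0.37, edgeR adjusted p = 0.371).

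HSPE1, the lid (chromosome 2, 197499994 to 197503457), was at 177, 201, 236, 201 and 199 CPM with stretch medium and at 295, 186, 217, 247 and 249 CPM with static medium. Each stretch library was below the static mean of 239 CPM, and static 3 and 5 lay among the stretch libraries. Its log2 fold change was -0.23 (interval -0.50 to 0.025, edgeR adjusted p = 0.354), and -0.15 without static 1. The annotated bounds of HSPD1 and HSPE1, introns included, overlap on opposite strands. Exons were not compared, so whether any counted read could come from either gene was not tested.

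The 2 genes are transcribed head to head from one promoter, so their opposite estimates are shown beside the stretch that separates the RefSeq starts. The triple shown above for HSPD1 comes from the window of another annotated start. It lies within chr2:197500060-197500090, downstream of the HSPD1 start at 197500274 that bounds the stretch shown here. The stretch between the starts is 104 bases long, 74% G and C, with no pair of heat shock units. It is at chr2:197500275-197500378 on the plus strand of GRCh38.p14, in the direction of HSPE1.
HSPD1 and HSPE1, between the starts: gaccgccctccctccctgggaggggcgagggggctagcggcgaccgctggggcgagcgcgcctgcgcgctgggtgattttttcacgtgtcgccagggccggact

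Within a library, the ratio of HSPD1 to HSPE1 counts was 4.33, 4.05, 3.38, 3.65 and 4.39 with stretch medium and 2.65, 3.69, 3.18, 2.62 and 2.95 with static medium. Static 3 alone reached into the stretch range. The ratio of HSPD1 to HSPA9 was 2.01, 1.99, 1.95, 1.77 and 2.46 with stretch medium and 1.75, 1.53, 1.59, 1.39 and 1.72 with static medium, and did not overlap. Both pairs were chosen after their values were seen and are given with no test. A ratio of counts sets libraries side by side and says nothing of protein or of the 2 transcripts' relative amounts in a cell, since each gene is read by its own amplified target.

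TRAP1, the HSP90 of mitochondria (chromosome 16, 3651639 to 3717597), was at 45.0, 32.7, 43.7, 35.5 and 38.6 CPM with stretch medium and at 35.2, 32.4, 36.3, 32.1 and 27.9 CPM with static medium. Stretch 2, 6 and 10 were above each static library, and stretch 4 and 8 lay among them. The log2 fold change was 0.26 (interval -0.014 to 0.52, edgeR adjusted p = 0.327).

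**Figure D5:**
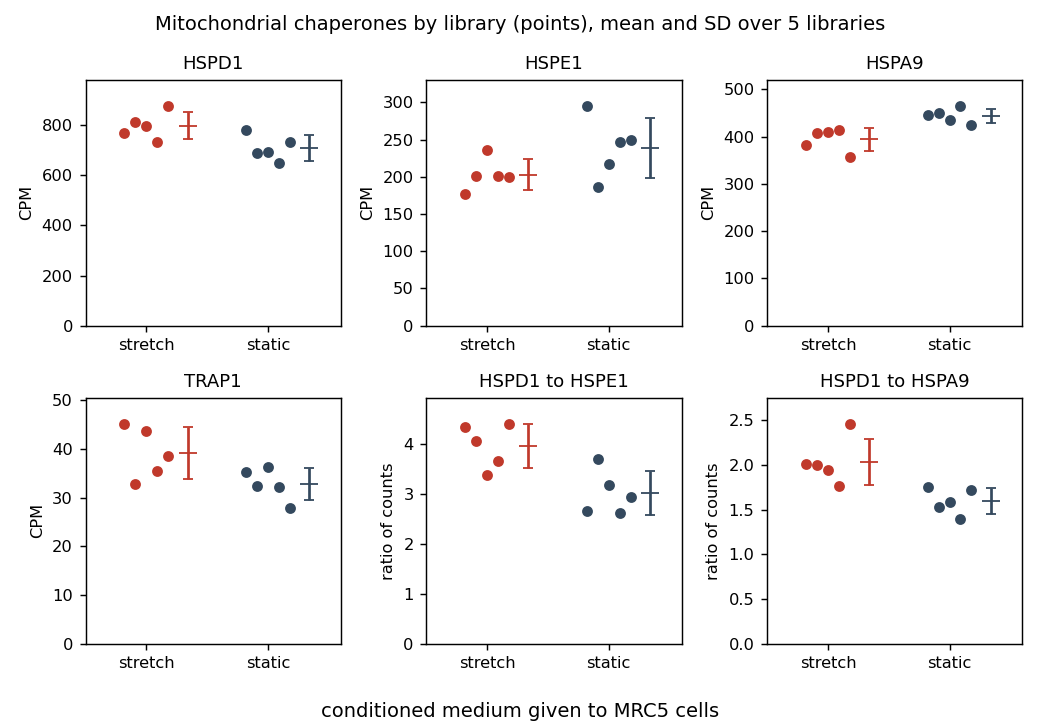
CPM (y axes, from 0) of HSPD1, HSPE1, HSPA9 and TRAP1 and the ratios of HSPD1 counts to HSPE1 and to HSPA9 counts in each library (points), with mean and SD over 5 libraries, stretch medium left of static medium. HSPD1 and TRAP1 average higher with stretch medium, HSPE1 and HSPA9 lower, and both ratios are higher.

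Other genes of the chaperone network were examined in the same fit. Of 116 listed, 93 were tested, 43 above and 50 below 0, with a median of -0.024 and 0 past the threshold in edgeR. DESeq2 called 2 of the 93, NUDCD3 and TIMM44, against 2.84% of all genes to which it gave an adjusted p. At an unadjusted p under 0.05, 7 were higher and 5 lower (12.9%, against 16.4% of all genes).

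Of 17 other HSP90 co-chaperones tested, 10 lay above and 7 below 0, with a median of 0.067. Such a p was found for 4 of them (23.5%, against 16.4% of all genes), each higher with stretch medium, as were 8.08% of all genes. NUDCD3, a NudC-family co-chaperone known to stabilise dynein, averaged 156 ± 21.1 CPM with stretch medium and 113 ± 17.98 CPM with static medium, a log2 fold change of 0.47 ± 0.13 (adjusted p = 0.119 in edgeR and 0.0264 in DESeq2). TTC4, an HSP90-binding repeat protein, was at 0.32 (edgeR adjusted p = 0.166), and UNC45A, the myosin-folding co-chaperone, at 0.35 (edgeR adjusted p = 0.178). Among 18 other genes of the HSP70 system, HSPBP1, an exchange factor, was at 0.34 and the HSP40 gene DNAJB2 at -0.50, both with an edgeR adjusted p over 0.27 (0.276 and 0.285). HSBP1, which binds HSF1 and is known to restrain it, was at -0.25 (edgeR adjusted p = 0.302) and was the one of 3 regulators tested with an unadjusted p under 0.05.

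The helpers and the main clients of TRiC were split evenly about 0. Of 10 prefoldin and TRiC assistant genes, 5 lay above and 5 below 0 (median -0.024), with 0 at an unadjusted p under 0.05. Of 14 actin and tubulin genes, 7 lay above and 7 below 0 (median -0.023), and ACTA2, the smooth muscle actin, was the one with such a p, at 0.32 ± 0.13 (edgeR adjusted p = 0.244). The 2 other small heat shock genes tested had a median of 0.11, with 0 at such a p.

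In mitochondria, 14 other chaperone and protease genes had a median of -0.0027. TIMM44, which tethers HSPA9 to the import channel, averaged 26.1 ± 5.64 CPM with stretch medium and 36.8 ± 3.21 CPM with static medium, a log2 fold change of -0.50 ± 0.15 (adjusted p = 0.139 in edgeR and 0.0495 in DESeq2). The protease gene SPG7 was at 0.26 (edgeR adjusted p = 0.283). Of 15 ER chaperones, 6 lay above and 9 below 0, with a median of -0.14. PDIA4, a disulfide isomerase, was at -0.46 (edgeR adjusted p = 0.18) and the lectin chaperone CANX at -0.45 (edgeR adjusted p = 0.243).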

How the data were processed

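MRC5 RNA was profiled with the Ion AmpliSeq Transcriptome kit, which amplifies short targets by PCR, per the labels' protocols. The authors deposited raw counts, whole numbers for each Ensembl gene. Fastp 0.20.1, Salmon 1.9 and build hg38/GRCh38 are named in the submitters' processing notes. Roles of these tools, annotation, strand use and rounding: not given in the sources used here. No molecular identifiers are mentioned, so counts are of reads, and the floor of 3 counts covers counting error only. The 95% intervals come from edgeR's fit and include the spread among libraries. Members and gene lists were chosen with earlier results of these data known. Symbols matched 13860 identifiers, and positions are from GENCODE release 29 (GRCh38). Levels are not compared between chaperone genes, since each has its own target. The marker sums add levels over different targets and are only a rough guide to cell type.

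Genes were kept by filterByExpr (minimum count 10, minimum total 15), scaled by TMM and tested with edgeR 4.0.16 (R 4.3.3, quasi-likelihood, threshold 0.05). A run on simulated counts served as a check of the code. It is not used here to say whether changes as small as those of the chaperones would be called. CPM were computed with TMM-adjusted totals, and log2 values add a prior count of 2. DESeq2 1.42.0 and limma-voom (limma 3.58.1) ran on the same genes. The rule for values in every library took HSF1, HSPA1A, HSPA1B, the HSP90 pair, TCP1, members with an unadjusted p under 0.05 or groups that did not overlap, and the highest and lowest fold change in each role group of 3 or more. Of the wider network it took up to 3 such genes a list and direction. HSPD1 was added after its values were seen. The labels and file name no batch.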

Additional observations from a re-analysis of the deposited data

Results flagged for a closer look

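In 4 of 64 groups of 5 libraries (32 genes in 2 media), 1 library stood far from the rest by Dixon's ratio of gap to range, above the critical value of 0.71. Chance gives about 1 such group in 20. DNAJA1 in stretch 2 was at 596 CPM, against 749 to 785 CPM in the other stretch libraries. CCT8 in stretch 6 was at 174 CPM, against 228 to 246 CPM. BAG3 in static 3 was at 218 CPM, against 169 to 176 CPM in the other static libraries. AHSA1 in static 9 was at 67.0 CPM, against 81.1 to 85.5 CPM. Stretch 2 was the lowest of the 10 libraries for 8 of the 32 genes, and stretch 6 for 6. Static 7 was the highest for 9.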

How the results depend on the processing

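No chaperone passed an adjusted p of 0.05 under any alternative run: other scalings, other filters, DESeq2, limma-voom, the title number as a covariate, pseudogene counts added to members (5 pseudogene rows, the sum of HSPA1A and HSPA1B not run) and each library left out. At an adjusted p of 0.1 the count over all genes was 61, and that of chaperones 0. DESeq2 called 275 genes and limma-voom 1, and with a library left out the edgeR count over all genes was 0 to 39 (39 without stretch 4, 2 without stretch 6 and 1 without stretch 10), where the cause was not tested. Of 576 estimates of single chaperones under alternatives, 559 kept their sign and 17 reversed, each near 0: DNAJB1 was 0.012 in limma-voom. With a library left out, estimates that crossed 0 ran from -0.094 to 0.092 for DNAJB1, -0.13 to 0.026 for TCP1, -0.020 to 0.15 for PTGES3, -0.12 to 0.034 for HSPA8, -0.0089 to 0.12 for STIP1, -0.11 to 0.0057 for CDC37, -0.089 to 0.029 for CCT4 and -0.0095 to 0.072 for CCT5. The BAG and ST13 median was -0.44 to -0.23 with a library left out, that of the HSF1-induced genes -0.046 to 0.053 and that of the mitochondrial genes -0.012 to 0.029. BAG3 and CCT3 kept an unadjusted p under 0.05 in 10 of 10 such fits, BAG1 in 7, ST13 in 3 and AHSA1 in 2. The TRiC subunits below 0 were 5 to 8, 5 of them without static 9. The scalings moved the median of all genes by less than 0.1. No paired analysis was run, since the labels name no pairs and the groups share no title number. Title numbers alternate between the groups, and whether neighbouring numbers belong together is not stated.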
